A study of Mus musculus with 6 samples.

Results

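The genes described here encode the transforming growth factor beta (TGF-beta) superfamily ligands of the BMP, GDF, activin and TGF-beta groups, their receptors and the Smad proteins that carry their signal. They were chosen by symbol, as all genes whose name begins with Bmp or Gdf and a digit, with Bmpr, Inhb or Acvr, or with Smad and a digit, together with Tgfb1 to Tgfb3 and Tgfbr1 to Tgfbr3. The rule found 46 of the 29385 genes listed, of which 24 encode ligands, 12 receptors and 8 Smads. The other 2 match by name alone. Bmp1 encodes a tolloid-type protease that cleaves procollagens and BMP inhibitors, and Bmp2k encodes a kinase named for its induction by BMP2.

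Poly-T captured RNA of 6 mouse heart samples was sequenced, with 2 libraries per group, 12 months after the newborn mice had been given the virus or vehicle. Treated mice had the Myh6 genotype RH/RQ and received AAV-hpCas13d, a virus vector (adeno-associated virus) for a Cas13d, an RNA-guided enzyme that cleaves RNA. The other groups received vehicle, and their Myh6 genotypes were RH/RQ and RH/+. Myh6 encodes the alpha myosin heavy chain of cardiomyocytes. All 3 groups carry the RH allele, so none is a wild type, and the labels spell out neither allele nor the transcript that the virus targets. Whether both samples of a group are from different animals is not stated, so p-values reflect the spread of these samples, which may be technical.

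A ligand of this superfamily is a dimer that binds pairs of type I and type II serine-threonine kinase receptors. BMPs act mainly through Smad1, Smad5 and Smad9, and activins and TGF-betas mainly through Smad2 and Smad3, while GDFs are divided between these branches. Smad4 joins the Smads of both branches, and Smad6 and Smad7 inhibit these branches. TGF-betas are stored in the matrix in a latent form, and BMPs and activins are held by secreted binding proteins, so the RNA of a ligand does not give the amount that reaches a receptor. In the heart, TGF-beta is known for activating fibroblasts and matrix production, and BMPs for roles in valve, vessel and chamber development.

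Library totals lay between 36269261 and 51017058 reads, and 3 reads, the limit that a count of 0 allows, were worth 0.0588 to 0.0827 CPM (reads of a gene scaled to a fixed library total), which covers counting error only. Sex-linked RNA was of a male pattern in both RH/RQ vehicle libraries and of a female pattern in the other 4, and the labels give no sex. The transcript Ddx3y, from the Y chromosome, was at 0 CPM in both treated libraries, 85.2 CPM in each RH/RQ vehicle library and 0 CPM in both RH/+ vehicle libraries. Xist, transcribed from the inactive X chromosome, was at 299 and 326 CPM in treated, 0.274 and 0.0516 CPM in RH/RQ vehicle and 280 and 265 CPM in RH/+ vehicle libraries. Sex, as read from these RNAs, therefore cannot be told apart from genotype or treatment in either comparison that involves the RH/RQ vehicle group. The summed level of 8 fibroblast markers was 3802 and 3232 CPM in treated, 3076 and 2889 CPM in RH/RQ vehicle and 2177 and 2586 CPM in RH/+ vehicle hearts. For 8 macrophage markers it was 220 and 187, 245 and 235, and 175 and 174 CPM in the same order, and for 8 cardiomyocyte markers 33666 and 31807, 27982 and 28432, and 32261 and 32763 CPM. All 8 cardiomyocyte markers had reads in every library, as the label heart implies. Most of the fibroblast sum was Gsn, at 2267 and 1934 CPM in treated, 1603 and 1550 CPM in RH/RQ vehicle and 1278 and 1628 CPM in RH/+ vehicle hearts. The fibroblast markers Col1a1 and Pcolce had their highest means in RH/RQ vehicle hearts, Tcf21 in RH/+ vehicle hearts and the others in treated hearts. In bulk tissue, fewer cells of a type and less RNA per cell cannot be told apart.

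Of the 46 genes, 37 had enough reads to be tested. The other 9, Acvr1c, Bmp3, Bmp8a, Bmp8b, Bmp10, Bmp15, Gdf2, Gdf7 and Inhbe, had at most 13 reads, or 0.341 CPM, in any library. The highest of these values was Bmp10, a ligand made by atrial cardiomyocytes, in RH/+ vehicle replicate 1, and Bmp10 had between 2 and 5 reads in each of the other 5 libraries. Among 8 atrial cardiomyocyte markers, Myl7, Myl4, Sln and Mybphl did not exceed 2.47 CPM in any library. Nppa, Dkk3, Stard10 and Tbx5 were at 8.03 CPM or more in every library. The part of atrial tissue in these samples was not tested. Calls were made with limma on log2(CPM + 1) at a Benjamini-Hochberg adjusted p under 0.05 over all 16804 genes tested. Fold changes below are on that scale, which understates those of low genes. In RH/RQ vehicle against RH/+ vehicle hearts, 4 of the 37 genes passed the test, which is 10.8% of them, against 4.99% of all genes tested. Tgfb2, Tgfb3 and Inhba rose (3 of 37, against 3.48% of all genes), and Bmp6 fell (1 of 37, against 1.51%). In treated against RH/RQ vehicle hearts, 1 of 37 passed (2.7%, against 2.05% of all genes, 1.22% higher and 0.827% lower), and this was Bmp6, which rose. Treated against RH/+ vehicle hearts also had 1 of 37 (2.7%, against 2.86% of all genes, 2.33% higher and 0.53% lower), and this was Gdf15, which rose. The 5 genes called at least once are all ligands, and none of the 11 receptors or 8 Smads tested passed in any comparison in this fit. At an unadjusted p under 0.05, 13, 8 and 8 of the 37 genes passed in the 3 comparisons in that order. Of all 16804 genes tested, 2868, 2096 and 2544 did so. The median log2 fold change of the 37 genes was 0.128, -0.0242 and 0.164 in the same order, and that of all genes tested 0.0376, 0.0443 and 0.0844. With 2 libraries per group, many genes have groups that do not overlap. This held for 26, 18 and 21 of the 37 genes in the same order, and for 49.3%, 40.5% and 44.7% of all genes tested. The comparisons share samples, so a gene's values in them are not independent.

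**Figure D1:**
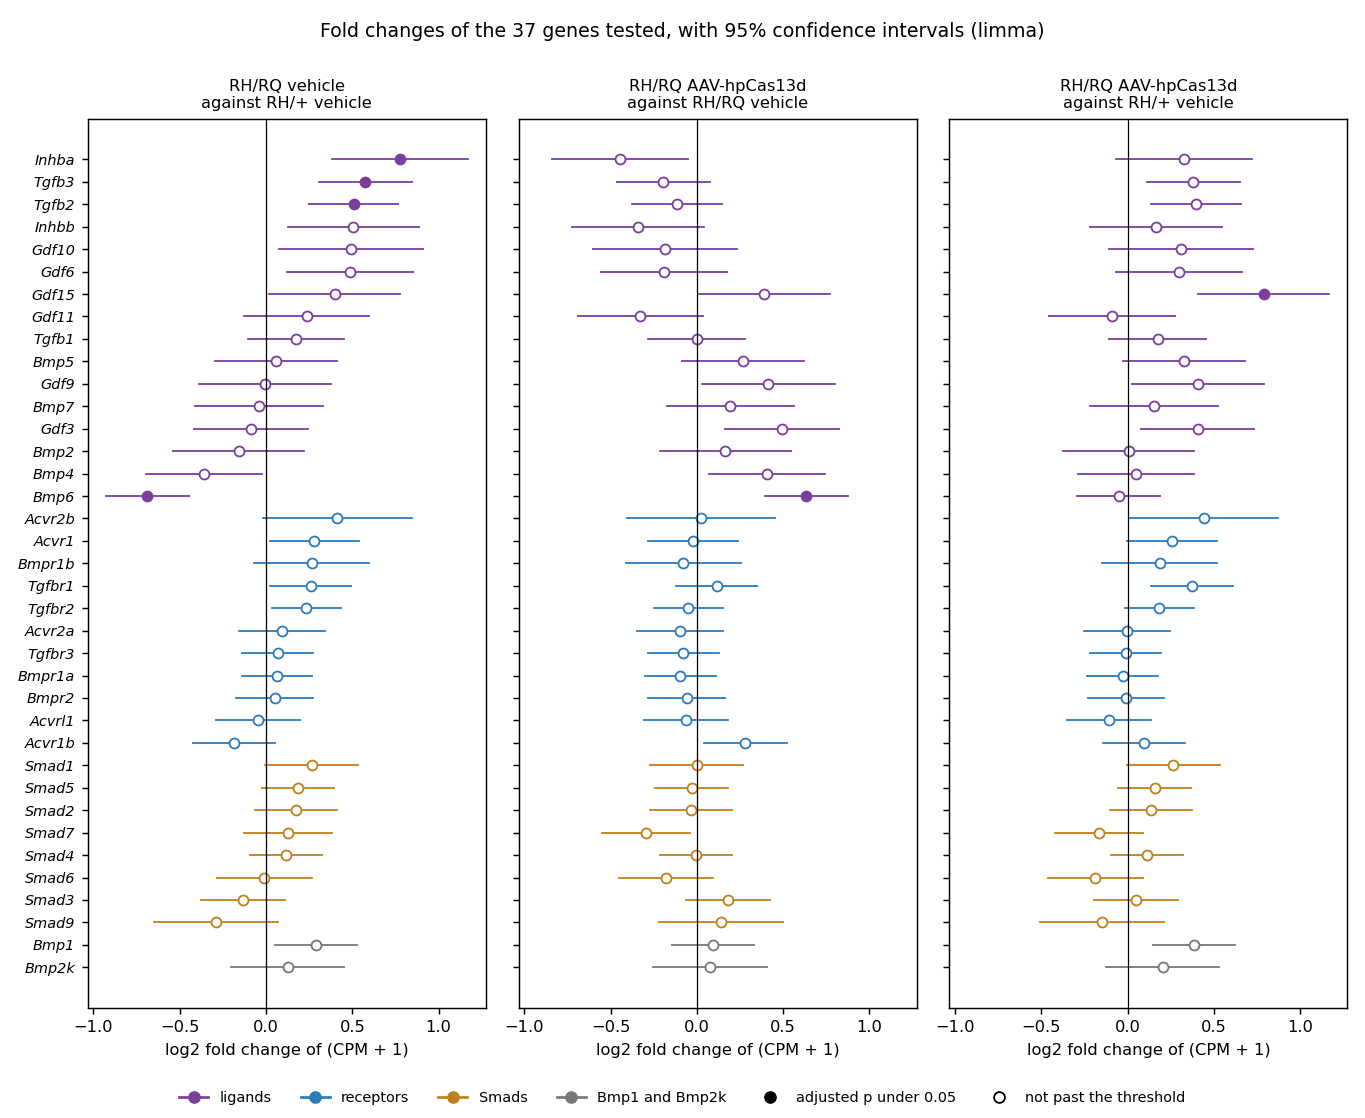
Log2 fold change of (CPM + 1), horizontal axis, of the 37 genes tested, 1 panel for each comparison; bars are 95% confidence intervals from limma, filled points have an adjusted p under 0.05, and genes are ordered within each class by the RH/RQ vehicle against RH/+ vehicle value. The 6 filled points all belong to ligands, with Bmp6 at -0.69 in the left panel and 0.63 in the middle one.

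The sequences below lie just before the starts of called ligands. They are shown because Tgfb2 and Inhba passed the test in the same comparison and direction, and Gdf15 passed in another. RefSeq promoters were found for 33 of the 46 genes (build GRCm38.p6), and the 250 bases before the start are printed 5′ to 3′ on the gene's strand. Capitals mark matches to the core Smad-binding letters CAGAC on either strand and to the TATA box letters TATAAA on the gene's strand. Of all 32851 promoters of this length, 42.2% hold the Smad letters and 7.59% the TATA letters. The cyclic AMP response element TGACGTCA, held by 1.55% of promoters and searched on both strands, was not among the letters of these 3 windows.
Tgfb2, chr1:186705990-186706239, minus strand: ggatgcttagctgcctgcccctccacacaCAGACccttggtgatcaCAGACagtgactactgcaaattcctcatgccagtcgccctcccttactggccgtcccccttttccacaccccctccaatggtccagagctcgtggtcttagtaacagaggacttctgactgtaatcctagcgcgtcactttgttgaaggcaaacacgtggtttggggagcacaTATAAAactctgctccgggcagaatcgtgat
Inhba, chr13:16011601-16011850, plus strand: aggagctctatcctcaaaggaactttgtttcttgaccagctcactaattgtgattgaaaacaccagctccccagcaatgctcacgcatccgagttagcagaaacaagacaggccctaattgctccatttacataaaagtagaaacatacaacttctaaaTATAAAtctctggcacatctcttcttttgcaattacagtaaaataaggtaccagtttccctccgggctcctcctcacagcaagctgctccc
Gdf15, chr8:70632457-70632706, minus strand, the first of 2 RefSeq promoters: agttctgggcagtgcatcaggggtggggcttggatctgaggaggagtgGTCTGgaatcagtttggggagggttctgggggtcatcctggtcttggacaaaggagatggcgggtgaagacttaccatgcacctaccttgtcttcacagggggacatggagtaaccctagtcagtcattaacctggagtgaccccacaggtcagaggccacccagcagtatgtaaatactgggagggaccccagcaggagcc
The Tgfb2 window held the Smad letters at -221 and -204 and the TATA letters at -31, counted back from the start. In the Inhba window, the TATA letters stood at -91 and the Smad letters did not occur. Gdf15 had the Smad letters on the opposite strand at -202 and no TATA letters. GC content was 53.6%, 43.2% and 56.4% in the same order. A match describes letters only and is not evidence of binding. No RefSeq promoter was found for Tgfb3, which was also called. The RefSeq window of Bmp6 lies wholly within GENCODE M21 exons of that gene, and 196 of the 250 bases of the second Gdf15 window lie in Gdf15 exons. These windows are not printed.

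Bmp6 encodes a BMP best known from liver, where endothelial cells release it and it controls the iron hormone hepcidin. Its gene (ENSMUSG00000039004.6) spans chr13:38345107-38500302 on the plus strand in GRCm38. Bmp6 was at 45.0 and 36.6 CPM in treated, 26.6 and 25.0 CPM in RH/RQ vehicle and 39.3 and 45.1 CPM in RH/+ vehicle hearts. Both RH/RQ vehicle libraries lay below all 4 others, and the treated and RH/+ vehicle groups overlapped. Means were 40.8 ± 5.92, 25.8 ± 1.17 and 42.2 ± 4.11 CPM in the same order (SD, n = 2 each). In RH/RQ vehicle against RH/+ vehicle hearts, Bmp6 fell by 0.69 (SE 0.117, adjusted p = 0.000583). It rose by 0.63 in treated against RH/RQ vehicle hearts (SE 0.117, adjusted p = 0.00277), and without treated replicate 1 the difference was 0.49 (adjusted p = 0.0563). Between treated and RH/+ vehicle hearts, the difference was -0.05 (95% confidence interval -0.29 to 0.19, adjusted p = 0.883). The authors' deposited table gives log2 fold changes of -0.76 (adjusted p = 3.52e-08) and 0.60 (adjusted p = 0.00163) for Bmp6 in the first pair of these comparisons. Txndc5, on the opposite strand, shares 224 bases of exon with Bmp6, or 5.74% of the Bmp6 exons, and the strand setting of the counting is not given in the sources used here. Txndc5 was at 65.8 and 62.0, 61.5 and 60.2, and 51.7 and 49.8 CPM in treated, RH/RQ vehicle and RH/+ vehicle hearts. Its lowest values were those of the RH/+ vehicle libraries. The part of reads from the shared bases in the Bmp6 values was not tested.

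Bmp4, a BMP of mesenchymal and endothelial cells, was at 9.35 and 7.46 CPM in treated, 5.86 and 6.26 CPM in RH/RQ vehicle and 7.48 and 8.67 CPM in RH/+ vehicle hearts. Its RH/RQ vehicle libraries were again the lowest 2 of the 6, but the differences did not pass the test. They were -0.36 in RH/RQ vehicle against RH/+ vehicle hearts (adjusted p = 0.254) and 0.41 in treated against RH/RQ vehicle hearts (adjusted p = 0.276). Bmp2, Bmp5 and Bmp7 lay between 0.401 and 2.36 CPM in every library, and none of them passed.

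**Figure D2:**
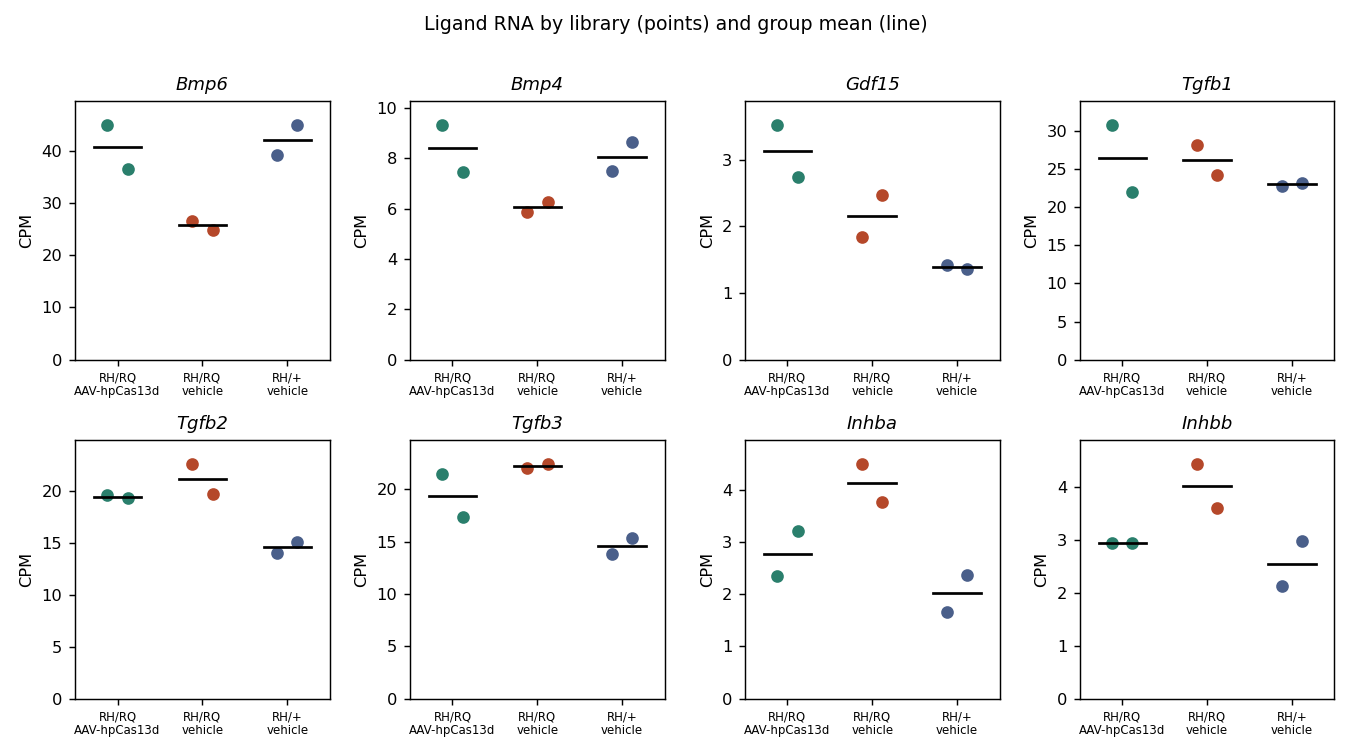
CPM (vertical axes, from 0, a scale for each gene) of 8 ligand genes in treated RH/RQ, RH/RQ vehicle and RH/+ vehicle hearts; each point is a library and each line the mean of the 2 libraries of a group. Bmp6 and Bmp4 are lowest in RH/RQ vehicle hearts, while Tgfb2 and Tgfb3 are lowest in RH/+ vehicle hearts.

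The 3 TGF-beta isoforms bind the same receptor pair and differ in where and when they are made. Tgfb3 (ENSMUSG00000021253.7, chr12:86056745-86079041, minus strand) was at 21.5 and 17.3 CPM in treated, 22.0 and 22.5 CPM in RH/RQ vehicle and 13.8 and 15.4 CPM in RH/+ vehicle hearts. Both RH/RQ vehicle libraries lay above all 4 others, and both RH/+ vehicle libraries below. Tgfb3 rose by 0.58 in RH/RQ vehicle against RH/+ vehicle hearts (SE 0.131, adjusted p = 0.00905). The difference was 0.59 (adjusted p = 0.0522) without RH/RQ vehicle replicate 1, 0.56 (adjusted p = 0.073) without RH/RQ vehicle replicate 2 and 0.50 (adjusted p = 0.155) without RH/+ vehicle replicate 1. Tgfb2 (ENSMUSG00000039239.14, chr1:186622792-186705989, minus strand), whose promoter is printed above, was at 19.7 and 19.3 CPM in treated, 22.7 and 19.7 CPM in RH/RQ vehicle and 14.1 and 15.1 CPM in RH/+ vehicle hearts. Its RH/+ vehicle libraries were the lowest 2 of the 6. Tgfb2 rose by 0.51 in RH/RQ vehicle against RH/+ vehicle hearts (SE 0.126, adjusted p = 0.0173). Without RH/RQ vehicle replicate 1 this was 0.41 (adjusted p = 0.216), without RH/+ vehicle replicate 1 it was 0.46 (adjusted p = 0.213), and without RH/+ vehicle replicate 2 it was 0.55 (adjusted p = 0.0653). The authors' deposited table also lists both genes as higher in RH/RQ vehicle hearts, by 0.56 (adjusted p = 0.00367) for Tgfb3 and 0.49 (adjusted p = 0.0153) for Tgfb2.

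Neither isoform passed the test in treated against RH/RQ vehicle hearts, with differences of -0.20 for Tgfb3 (95% confidence interval -0.47 to 0.07) and -0.11 for Tgfb2 (-0.37 to 0.15). Against RH/+ vehicle, treated hearts differed by 0.39 for Tgfb2 (adjusted p = 0.102) and 0.38 for Tgfb3 (adjusted p = 0.137). The Tgfb3 difference was 0.53 (adjusted p = 0.0387) without treated replicate 2. Tgfb1, the isoform most often tied to scarring, was at 30.9 and 22.0 CPM in treated, 28.1 and 24.2 CPM in RH/RQ vehicle and 22.9 and 23.2 CPM in RH/+ vehicle hearts. The Tgfb1 treated libraries spanned all the others, and its differences were 0.17 for RH/RQ vehicle and 0.17 for treated hearts, each against RH/+ vehicle (adjusted p = 0.57 and 0.589), and 0.00 for treated against RH/RQ vehicle (adjusted p = 0.999).

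Inhba and Inhbb encode the beta subunits that form activin A and activin B. Inhba (ENSMUSG00000041324.14, chr13:16011851-16031621, plus strand) was at 2.34 and 3.22 CPM in treated, 4.51 and 3.76 CPM in RH/RQ vehicle and 1.65 and 2.38 CPM in RH/+ vehicle hearts. Both RH/RQ vehicle libraries exceeded the other 4. Inhba rose by 0.77 in RH/RQ vehicle against RH/+ vehicle hearts (SE 0.190, adjusted p = 0.0164), and by 0.98 in the authors' deposited table (adjusted p = 0.0346). The difference was 0.67 (adjusted p = 0.153) without RH/RQ vehicle replicate 1 and 0.60 (adjusted p = 0.279) without RH/+ vehicle replicate 1. For treated against RH/RQ vehicle hearts, it was -0.45 (95% confidence interval -0.84 to -0.05, adjusted p = 0.318), which is not a call. Inhbb was at 2.95 CPM in each treated library, 4.45 and 3.61 CPM in RH/RQ vehicle and 2.13 and 2.98 CPM in RH/+ vehicle hearts. Its RH/RQ vehicle libraries were also the highest 2 of the 6, with a difference from RH/+ vehicle of 0.51 that did not pass (adjusted p = 0.13).

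Gdf15 encodes a secreted stress-induced cytokine that, unlike most of the superfamily, signals through the brainstem receptor GFRAL with the co-receptor RET. Gdf15 (ENSMUSG00000038508.7, chr8:70629393-70632456, minus strand) was at 3.53 and 2.74 CPM in treated, 1.84 and 2.47 CPM in RH/RQ vehicle and 1.42 and 1.35 CPM in RH/+ vehicle hearts. These are 128 and 104, 94 and 96, and 54 and 54 reads, and the 3 groups did not overlap. Treated against RH/+ vehicle hearts differed by 0.79 (SE 0.183, adjusted p = 0.0172). The difference did not pass without treated replicate 1 (0.65, adjusted p = 0.158), RH/+ vehicle replicate 1 (0.81, adjusted p = 0.114) or RH/+ vehicle replicate 2 (0.77, adjusted p = 0.0946). DESeq2 on the recovered reads gave 1.07 (adjusted p = 0.0556), and the authors' deposited table gives 1.07 (adjusted p = 0.158). RH/RQ vehicle hearts lay between, 0.40 above RH/+ vehicle (adjusted p = 0.264) and with treated hearts 0.39 above them (adjusted p = 0.384). In the list of co-receptors, Ret was at 4.14 and 3.98 CPM in treated, 7.06 and 6.55 CPM in RH/RQ vehicle and 8.19 and 6.14 CPM in RH/+ vehicle hearts. Ret fell by 0.68 in treated against RH/+ vehicle hearts (adjusted p = 0.0288), a call that was lost without treated replicate 1, treated replicate 2 or RH/+ vehicle replicate 1.

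Gdf10 and Gdf11 gave no call, and GDF11 is a close relative of myostatin. Gdf10 was at 2.29 and 1.08 CPM in treated, 2.16 and 1.80 CPM in RH/RQ vehicle and 1.26 and 0.977 CPM in RH/+ vehicle hearts, and its treated libraries overlapped with both other groups. Gdf11 was at 2.81 and 2.45, 3.53 and 3.58, and 2.73 and 3.01 CPM in the same order, highest in both RH/RQ vehicle libraries, with differences of 0.24 from RH/+ vehicle (adjusted p = 0.542) and, in treated against RH/RQ vehicle, of -0.33 (adjusted p = 0.463). Gdf3, Gdf6 and Gdf9 did not exceed 1.13 CPM in any library. Gdf3, a ligand of early embryos and pluripotent cells, had 21 and 13 reads in treated, 1 and 2 reads in RH/RQ vehicle and 2 and 6 reads in RH/+ vehicle hearts. It is named because edgeR called it in treated against RH/RQ vehicle hearts (log2 fold change 3.59, adjusted p = 0.0443), while the limma difference was 0.49 (adjusted p = 0.136).

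Among the 11 receptor genes tested, log2 fold changes lay between -0.187 and 0.439 over the 3 comparisons. Bmpr2, the type II receptor of BMPs, was at 80.6 and 103 CPM in treated, 90.0 and 100.2 CPM in RH/RQ vehicle and 93.9 and 89.7 CPM in RH/+ vehicle hearts. Bmpr1a, a type I BMP receptor, was at 69.9 and 82.2, 81.0 and 81.2, and 76.9 and 78.0 CPM in the same order. For both, the treated libraries spanned all the others, and the 95% confidence intervals of all 3 differences lay between -0.30 and 0.27. Acvrl1, the endothelial type I receptor also called ALK1, was at 40.6 and 31.2, 36.2 and 38.4, and 38.0 and 38.9 CPM in treated, RH/RQ vehicle and RH/+ vehicle hearts. Tgfbr3, the co-receptor betaglycan, was at 50.1 and 53.4, 54.9 and 54.6, and 49.7 and 54.8 CPM in the same order. The Acvrl1 groups overlapped in every comparison, and for Tgfbr3 the treated libraries lay below both RH/RQ vehicle libraries by little (-0.08, adjusted p = 0.81).

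Tgfbr1 and Tgfbr2 encode the kinase receptors of TGF-beta. Tgfbr2 was at 73.4 and 68.0 CPM in treated, 75.6 and 70.8 CPM in RH/RQ vehicle and 60.0 and 64.2 CPM in RH/+ vehicle hearts. Tgfbr1 was at 29.6 and 33.4, 28.2 and 29.8, and 23.0 and 25.2 CPM in the same order. For both genes the RH/+ vehicle libraries were the lowest 2 of the 6, but the differences stayed below the threshold. In RH/RQ vehicle against RH/+ vehicle hearts, they were 0.23 for Tgfbr2 (adjusted p = 0.196) and 0.26 for Tgfbr1 (adjusted p = 0.237). For treated against RH/+ vehicle hearts, they were 0.18 for Tgfbr2 (adjusted p = 0.383) and 0.37 for Tgfbr1 (adjusted p = 0.0842). Acvr2b, a type II receptor of activins and GDF11, was at 2.78 and 3.19 CPM in treated, 3.31 and 2.55 CPM in RH/RQ vehicle and 1.31 and 2.73 CPM in RH/+ vehicle hearts. Its lowest value was that of 1 RH/+ vehicle library, and its interval for treated against RH/+ vehicle ran from 0.01 to 0.87 (adjusted p = 0.319). Among the rest, Acvr1, Acvr1b and Acvr2a lay between 14.7 and 28.6 CPM in every library, and Bmpr1b did not exceed 0.353 CPM.

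The Smads also gave no call, with log2 fold changes between -0.296 and 0.264 over the 3 comparisons. Smad5, of the BMP branch, was at 58.4 and 67.6 CPM in treated, 67.3 and 61.2 CPM in RH/RQ vehicle and 55.1 and 57.6 CPM in RH/+ vehicle hearts. Smad4, common to both branches, was at 43.8 and 46.0, 44.9 and 45.1, and 40.3 and 42.6 CPM in the same order. The differences from RH/+ vehicle were 0.19 in RH/RQ vehicle and 0.15 in treated hearts for Smad5, and 0.12 and 0.11 for Smad4 in that order (adjusted p between 0.373 and 0.658). Smad2 was at 23.3 and 23.9, 24.9 and 23.5, and 21.3 and 21.4 CPM in treated, RH/RQ vehicle and RH/+ vehicle hearts. Smad3, its partner in the TGF-beta branch, was at 25.5 and 22.8, 20.3 and 22.1, and 23.6 and 23.0 CPM in the same order. Smad7, the inhibitory Smad induced by TGF-beta, was at 24.7 and 21.1, 25.8 and 31.1, and 25.1 and 26.5 CPM in the same order. The lowest of the 6 Smad7 values were those of the treated libraries, and the treated against RH/RQ vehicle difference of -0.30 (95% confidence interval -0.55 to -0.04) did not pass (adjusted p = 0.299). Smad1, Smad6 and Smad9 lay between 2.76 and 23.5 CPM in every library.

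Levels can be compared between genes only after division by exon length. Averaged over the 6 libraries, the receptors Bmpr1a (12.3 CPM per kb of exon), Acvrl1 (8.72), Tgfbr2 (8.39) and Tgfbr3 (8.08) led their class in CPM per kb. Smad4 led the Smads, at 11.8 CPM per kb. Bmp6 was the highest ligand, at 9.30 CPM per kb, followed by Tgfb3 at 5.54, Tgfb1 at 5.0, Bmp4 at 3.34 and Tgfb2 at 3.18 CPM per kb. Gdf15 came next at 1.2 CPM per kb, and all other ligands were below 1 CPM per kb.

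**Figure D3:**
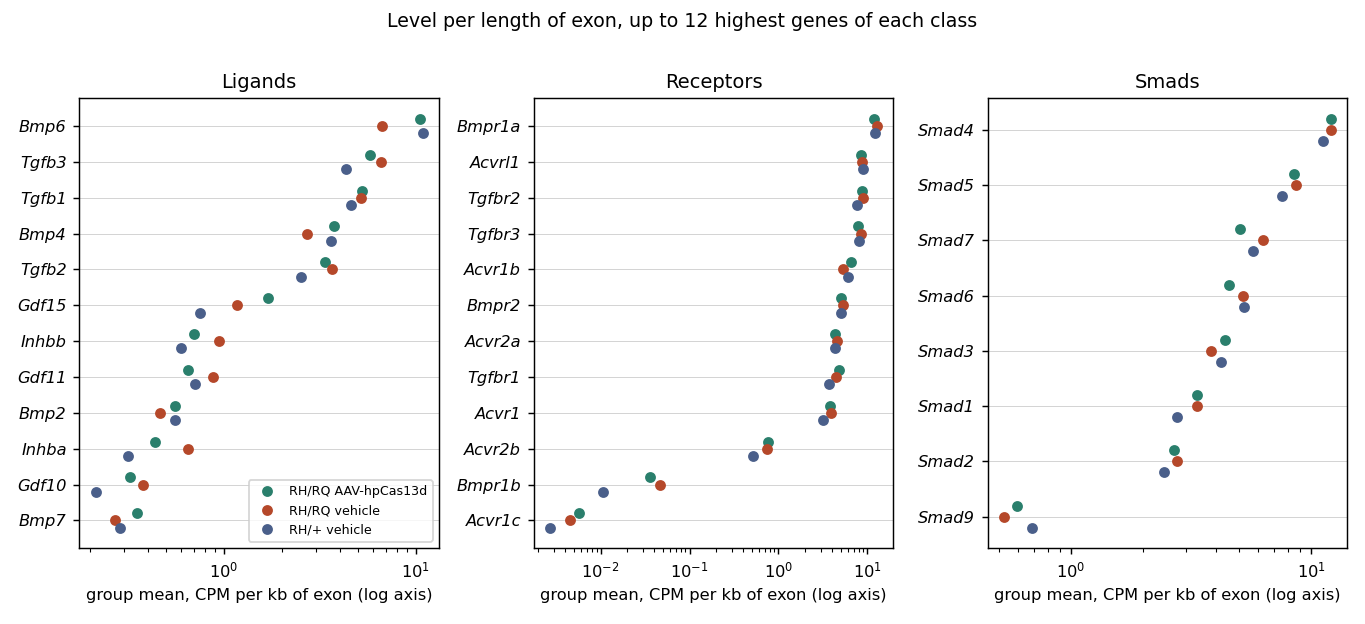
Group means in CPM per kb of exon (horizontal log axes, a range for each panel) of up to 12 genes of each class, ordered by their mean over 6 libraries; colours mark treated RH/RQ, RH/RQ vehicle and RH/+ vehicle hearts. Bmp6 leads the ligands at 9.30 CPM per kb over all libraries, Bmpr1a the receptors at 12.3 and Smad4 the Smads at 11.8.

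Of the proteins matched by name only, Bmp1 was at 70.0 and 58.0 CPM in treated, 66.4 and 53.4 CPM in RH/RQ vehicle and 46.5 and 50.7 CPM in RH/+ vehicle hearts. Both RH/+ vehicle libraries were the lowest of the 6, and the treated against RH/+ vehicle difference of 0.39 did not pass (adjusted p = 0.0742), while without treated replicate 2 it was 0.52 (adjusted p = 0.0199). Bmp2k lay between 6.79 and 9.40 CPM, with no call.

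Other genes of the pathway were taken from lists by role. These lists were chosen with earlier results of these data known, so the shares called in them are not a test of a role. Several genes, among them Bambi, Runx2, Skil and Ltbp2, stand in several lists and are counted in each. The list of ligands outside the rule had 3 genes tested, Mstn, Inha and Lefty1, and none passed in any comparison. Of 21 secreted binding proteins and inhibitors tested, 7 rose and none fell in RH/RQ vehicle against RH/+ vehicle hearts (33.3% called, against 4.99% of all genes, and a median log2 fold change of 0.243, against 0.0376 over all genes), and 4 rose without RH/RQ vehicle replicate 2. In treated against RH/RQ vehicle hearts, 1 rose and 2 fell (14.3% called, against 2.05%, median -0.13, against 0.0443), and in treated against RH/+ vehicle hearts 2 rose (9.52% called, against 2.86%, median 0.0875, against 0.0844), which was 1 without RH/+ vehicle replicate 1, with RLE scaling or by edgeR. Bmper, which binds BMPs outside the cell, was at 4.49 and 3.27 CPM in treated, 10.04 and 10.9 CPM in RH/RQ vehicle and 4.52 and 3.93 CPM in RH/+ vehicle hearts. It rose by 1.14 in RH/RQ vehicle against RH/+ vehicle hearts (SE 0.174, adjusted p = 0.000181) and fell by 1.24 in treated against RH/RQ vehicle hearts (adjusted p = 0.000121). Its RH/RQ vehicle libraries were thus the highest of the 6, where those of Bmp6 were the lowest. Fmod, a proteoglycan that binds collagen and TGF-beta, was at 2.67 and 1.27, 7.21 and 12.7, and 2.36 and 2.46 CPM in treated, RH/RQ vehicle and RH/+ vehicle hearts. Fmod rose by 1.64 in RH/RQ vehicle against RH/+ vehicle hearts and fell by 1.88 in treated against RH/RQ vehicle hearts. Fst, encoding the activin-binding protein follistatin, was at 0.689 and 0.527 CPM in treated, 0.843 and 1.86 CPM in RH/RQ vehicle and 0.0525 and 0.276 CPM in RH/+ vehicle hearts. These are 25 and 20, 43 and 72, and 2 and 11 reads, and RH/+ vehicle replicate 1 lay below the limit of 3 reads. Fst rose together with Inhba in RH/RQ vehicle against RH/+ vehicle hearts, by 0.99 (adjusted p = 0.00254), as did the follistatin-like gene Fstl1, by 0.52 (adjusted p = 0.00179). Dcn and Bgn, proteoglycans that also bind TGF-beta, rose in RH/RQ vehicle against RH/+ vehicle hearts, by 0.59 and 0.46, and in treated against RH/+ vehicle hearts, by 0.69 and 0.48. Dcn is also 1 of the 8 fibroblast markers, whose sums are given above, and the part of fibroblast RNA in these differences was not tested. Wfikkn2, which binds myostatin and GDF11, rose by 0.64 in treated against RH/RQ vehicle hearts (adjusted p = 0.0383), a call lost when any 1 of those 4 libraries was left out and with TMM or RLE scaling.

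Latency, activation and processing genes numbered 23, of which 5 rose and 1 fell in RH/RQ vehicle against RH/+ vehicle hearts (26.1% called, against 4.99% of all genes, median 0.221, against 0.0376). In treated against RH/RQ vehicle hearts, 1 rose and 3 fell (17.4% called, against 2.05%, median -0.0776, against 0.0443), and in treated against RH/+ vehicle hearts 7 rose (30.4% called, against 2.86%, median 0.256, against 0.0844). The 3 that fell were 1 without RH/RQ vehicle replicate 1 and 0 without replicate 2, and the 7 that rose were 3 without treated replicate 1, 4 without RH/+ vehicle replicate 1 or replicate 2 and 3 with TMM or RLE scaling, edgeR or DESeq2. Ltbp2, a latent TGF-beta binding protein family member that binds fibrillin rather than latent TGF-beta, was at 6.23 and 7.09 CPM in treated, 12.4 and 18.9 CPM in RH/RQ vehicle and 2.26 and 2.71 CPM in RH/+ vehicle hearts. Its log2 fold change was 2.23 for RH/RQ vehicle and 1.14 for treated hearts, each against RH/+ vehicle, and -1.10 for treated against RH/RQ vehicle. Thbs1, an activator of latent TGF-beta, was at 24.2 and 20.4, 34.1 and 31.9, and 9.29 and 11.2 CPM in the same order, with changes of 1.60, 1.05 and -0.55. Both genes thus stood highest in RH/RQ vehicle hearts, and their treated libraries lay between the other groups. Fbn1, whose fibrillin microfibrils hold latent complexes, had changes of 0.87, 0.42 and -0.45 in that order, and the matrix protease Mmp2 rose by 1.01 in RH/RQ vehicle and 0.82 in treated hearts, each against RH/+ vehicle. The integrin gene Itgb5 rose by 0.38 in treated against RH/+ vehicle hearts. Pcsk6, a convertase that cleaves ligand precursors of this family, was at 98.1 and 90.8 CPM in treated, 64.9 and 59.4 CPM in RH/RQ vehicle and 75.0 and 92.3 CPM in RH/+ vehicle hearts. Like those of Bmp6, its RH/RQ vehicle libraries were the lowest 2. Pcsk6 rose by 0.60 in treated against RH/RQ vehicle hearts (adjusted p = 0.00178) and fell by 0.42 in RH/RQ vehicle against RH/+ vehicle hearts (adjusted p = 0.0191), and the second call was lost without RH/RQ vehicle replicate 2 or RH/+ vehicle replicate 2.

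**Figure D4:**
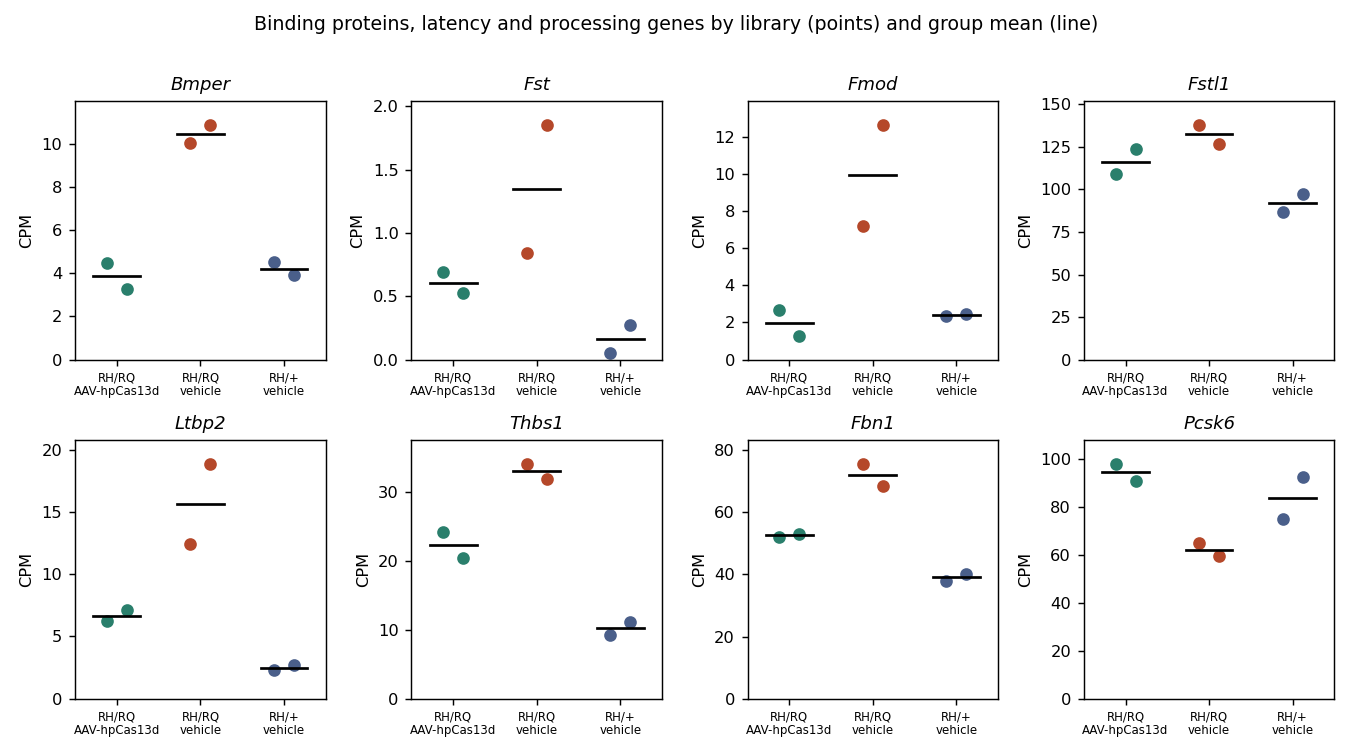
CPM (vertical axes, from 0, a scale for each gene) of 4 secreted binding proteins (upper row) and 4 latency, activation or processing genes (lower row) in treated RH/RQ, RH/RQ vehicle and RH/+ vehicle hearts; points are libraries and lines the means of 2. Bmper is highest in RH/RQ vehicle hearts, at 10.04 and 10.9 CPM, and Pcsk6 lowest there, at 64.9 and 59.4 CPM.

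Among 18 co-receptors and membrane modulators, 4 rose in RH/RQ vehicle against RH/+ vehicle hearts, none passed in treated against RH/RQ vehicle hearts, and 2 rose and 1 fell in treated against RH/+ vehicle hearts. The share called was 22.2%, 0% and 16.7% in that order, against 4.99%, 2.05% and 2.86% of all genes, and the median was 0.107, -0.0273 and 0.0837, against 0.0376, 0.0443 and 0.0844. The 4 were Bambi, a decoy receptor, by 0.63, Cd109, by 0.90, the TGF-beta binding protein Vasn, by 0.57, and Tmem53, by 0.50. Without RH/RQ vehicle replicate 1 or RH/+ vehicle replicate 2 the count was 1. It was 2 when RH/RQ vehicle replicate 2 or RH/+ vehicle replicate 1 was left out, or with a pseudocount of 5. Cd109 and Vasn also rose in treated against RH/+ vehicle hearts, by 0.76 and 0.64, and neither call held without RH/+ vehicle replicate 1 or replicate 2, and 1 of them without treated replicate 1. Of 26 intracellular regulators, 2 rose in RH/RQ vehicle against RH/+ vehicle hearts, the Smad co-repressor Skil, by 0.44, and the transcription factor Runx2, by 0.65. When RH/RQ vehicle replicate 1, RH/+ vehicle replicate 1 or RH/+ vehicle replicate 2 was left out, none did. The count was 1 when RH/RQ vehicle replicate 2 was left out, with TMM or RLE scaling, with a pseudocount of 5 or by DESeq2. None passed in treated against RH/RQ vehicle hearts, and Runx2 passed in treated against RH/+ vehicle hearts, by 0.75. The shares called, 7.69%, 0% and 3.85% in that order, lie near the 4.99%, 2.05% and 2.86% of all genes.

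BMP target genes rose in 4 of 18 cases in RH/RQ vehicle against RH/+ vehicle hearts, a comparison in which Bmp6 fell (22.2% called, against 4.99% of all genes, median 0.158, against 0.0376). The 4 were Bambi, Msx1, Runx2 and Id3, and none passed without RH/RQ vehicle replicate 1 or RH/+ vehicle replicate 2 and 1 without RH/+ vehicle replicate 1. Id3, one of the inhibitors of differentiation that BMP-activated Smads induce, was at 73.1 and 51.8 CPM in treated, 77.5 and 63.5 CPM in RH/RQ vehicle and 52.1 and 51.2 CPM in RH/+ vehicle hearts, a difference of 0.44 in RH/RQ vehicle against RH/+ vehicle hearts (adjusted p = 0.0475). Id1 differed there by 0.40 (adjusted p = 0.094), Id2 by 0.22 (adjusted p = 0.466) and Id4 by -0.16 (adjusted p = 0.713). Hey1 fell by 0.66 in treated against RH/RQ vehicle hearts (adjusted p = 0.0106), and no other BMP target passed (5.56% called, against 2.05% of all genes). Hey1, a transcriptional repressor also induced by Notch, lost its call without treated replicate 2 or RH/RQ vehicle replicate 1. Against RH/+ vehicle, Runx2 alone passed in treated hearts (5.56% called, against 2.86% of all genes), and it did not without treated replicate 1, RH/+ vehicle replicate 1 or RH/+ vehicle replicate 2, while 3 targets passed without treated replicate 2.

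TGF-beta target genes gave more calls than any other list here, though the list was chosen with earlier results of these data known. Of 32 tested, 13 rose and 1 fell in RH/RQ vehicle against RH/+ vehicle hearts (43.8% called, against 4.99% of all genes, median 0.314, against 0.0376), 2 rose and 8 fell in treated against RH/RQ vehicle hearts (31.2% called, against 2.05%, median -0.20, against 0.0443), and 10 rose and 1 fell in treated against RH/+ vehicle hearts (34.4% called, against 2.86%, median 0.226, against 0.0844). The 2 that rose were 1 without RH/RQ vehicle replicate 2 or with TMM or RLE scaling, and the 10 were 6 without treated replicate 1 or with RLE scaling and 5 without RH/+ vehicle replicate 1. Ltbp2, described above, had the highest fold change of the list in the first comparison. The collagen gene Col1a1 was at 61.4 and 50.3 CPM in treated, 115 and 139 CPM in RH/RQ vehicle and 35.5 and 42.3 CPM in RH/+ vehicle hearts. Col1a1 changed by 1.68 in RH/RQ vehicle and 0.51 in treated hearts, each against RH/+ vehicle, and by -1.17 in treated against RH/RQ vehicle hearts. Col3a1 and Col1a2 rose by 1.30 and 1.11 in RH/RQ vehicle against RH/+ vehicle hearts and fell by 1.15 and 0.78 in treated against RH/RQ vehicle hearts, where Lox, a collagen cross-linking enzyme, fell by 1.32. Col1a1 is also a fibroblast marker, and the part of fibroblast RNA in this list was not tested. Ccn2, a matricellular growth factor, rose by 0.81 in treated against RH/RQ vehicle and by 0.94 in treated against RH/+ vehicle hearts. Acta2, the smooth muscle actin of mural cells and myofibroblasts, fell by 1.35 in RH/RQ vehicle and by 1.51 in treated hearts, each against RH/+ vehicle. The cell cycle inhibitor Cdkn1a and the matricellular gene Postn rose by 0.99 and 0.76 in treated against RH/+ vehicle hearts. Cdkn1a was at 42.0 and 42.8 CPM in treated, 33.5 and 34.2 CPM in RH/RQ vehicle and 19.5 and 22.4 CPM in RH/+ vehicle hearts. Postn was at 53.0 and 67.0, 74.2 and 67.2, and 33.3 and 36.3 CPM in the same order. For both genes, the RH/RQ vehicle libraries thus also lay above the RH/+ vehicle libraries. The members of this list therefore did not all move one way.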

How the data were processed

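Poly-T captured RNA of 6 mouse heart samples was sequenced, 2 in each of 3 groups read from the genotype and treatment labels. The submitters' processing notes name HISAT2, HTSeq, DESeq2 and mm10; versions, strandedness and annotation are not given in the sources used here. The authors deposited 3 full tables of CPM per gene, with their own log2 fold changes and p-values, per the file headers. A library had the same CPM in every table (largest difference 0), and 0 sample columns were left unused. CPM were whole multiples of 1 read for 100% of values (tolerance 0.001 reads), so reads were recovered.

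Log2(CPM + 1) was tested with limma 3.58.1 (R 4.3.3), in 1 fit of 3 group means, on the 16804 genes that passed filterByExpr (minimum count 10). Benjamini-Hochberg adjustment ran over all of them, with a threshold of 0.05. The code was tested on simulated data. Alternatives were edgeR 4.0.16 and DESeq2 1.42.0 on recovered reads, TMM, RLE and nuclear-gene scaling, other filters and pseudocounts, a replicate block and leaving out each library. Gene positions and exon lengths are from GENCODE M21 (GRCm38), and promoters from RefSeq.

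The genes, role lists and markers were chosen with earlier results of these data known. Values in every library are given for genes called at least once, the 5 highest of each class and genes of at least 1 CPM with a log2 difference of at least 0.3. In the role lists, called genes are named in order of p, at most 5 per list and comparison, and Id1, Id2, Id4 and Gdf3 are named beyond this rule. One gene that the rule would name is not reported here. Annotated symbols of the rule that the tables do not list were not analysed here.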

Additional observations from a re-analysis of the deposited data

How the results depend on the processing

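Besides the reported setting, 17 alternatives were run, and no called fold change turned its direction in any of them. Without a filter on low genes, 0 of the genes described here passed in each comparison. Limma then tested all 29385 genes and called 57 of them for RH/RQ vehicle against RH/+ vehicle, and 15 and 7 for treated against RH/RQ vehicle and against RH/+ vehicle, and the cause was not tested. At an unadjusted p under 0.05, 13, 8 and 8 of the 37 genes of the reported fit passed in that order, beside 2868, 2096 and 2544 of all 16804 genes. When 1 library was left out, the 4 calls in RH/RQ vehicle against RH/+ vehicle hearts ranged from 1 to 4, the 1 call in treated against RH/RQ vehicle hearts from 0 to 1 and the 1 call in treated against RH/+ vehicle hearts from 0 to 3. The call that was kept in each such fit of the first comparison was Bmp6, between -0.78 and -0.59 over all alternatives. A lone library of a group was then assumed to vary like the other groups. EdgeR called 2 genes, Bmp6 and Gdf3, in treated against RH/RQ vehicle hearts. DESeq2 called 0 in treated against RH/+ vehicle hearts, where limma called 1. The first digit of the sample titles, taken as a replicate number, correlated in deviations from group means at 0.0742, -0.0204 and 0.13 over the 3 pairs of groups, so it was not shown to pair the samples. With it as a replicate block, 4, 1 and 3 genes passed in the 3 comparisons, the last being Bmp1, Gdf15 and Tgfbr1, and 1173, 567 and 715 of all genes, against 838, 344 and 480 without the block. The 9 genes with at most 13 reads in any library were left out by the filter on low genes, so no difference in them was tested in the reported fit.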
